A study of Mus musculus with 16 samples.

Results

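The genes described here are the cytokine receptor genes that lie side by side at the Ifnar1 locus of mouse chromosome 16 (Ifnar2, Il10rb, Ifnar1 and Ifngr2) and Gbe1 and Pigp, which lie further along the same chromosome. They were chosen by gene symbol, as receptors of the cluster and as neighbours that may carry alleles flanking the targeted Ifnar1 locus. The 6 genes are 6 of the 19752 genes named by a single symbol on the array, and 7 of its 24922 probe sets carry their symbols. Ifnar1 has 1 probe set, and Pigp has 2. All 6 genes passed the filter on low values in each model fitted here. They were proposed with results of these arrays known, so differences between the mouse lines are given as a description and support nothing.

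Levels were measured on 16 Affymetrix Mouse Gene 1.0 ST arrays, which read a gene's RNA through sets of short probes, in 8 groups of 2 arrays. The cells came from male mice and were sorted by flow cytometry. Macrophages (ICAM2+ F4/80+) came from the peritoneal cavity and CD4+ T cells (TCRB+ CD4+ CD8-) from the spleen. The KO macrophages came from 6-week-old mice of the line B6.129S2-Ifnar1tm1Agt/Mmjax, in which Ifnar1 was targeted, either 2 h after interferon alpha (IFNα), given under the skin at 10000 units, or titled as without IFNα. The remaining groups are macrophages and T cells of male B10.Q/J mice aged 7 weeks, which are known to carry a natural mutation of the kinase gene Tyk2, after vehicle or at 2 h or 5 h after the same dose. All B10.Q groups share that strain, and no group combines an intact Ifnar1 with the C57BL/6 background of the KO line. The line, the age and the preparation therefore cannot be told apart in any difference between KO and B10.Q macrophages. The title was followed for the untreated KO pair, although its preparation note gives the IFNα injection. Most B10.Q macrophage titles carry the code Sp and 1 vehicle T-cell title starts with B, and for these the labelled source and cell type were followed. Each vehicle pair joins an array taken at 2 h and one taken at 5 h. The labels do not say whether paired arrays hold different mice, so p-values measure only the spread between these arrays, and in sorted bulk cells fewer cells of a type and less RNA per cell cannot be told apart.

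The members of the receptor cluster encode chains of the class II cytokine receptor family, which work in pairs and signal through kinases of the JAK family. IFNAR1 and IFNAR2 together bind all type I interferons, IFNGR2 is the signalling partner of IFNGR1 in the receptor for interferon gamma, and IL10RB is the shared second chain of the receptors for IL-10, IL-22 and the lambda interferons. Gbe1 encodes the glycogen branching enzyme, and Pigp encodes a small subunit of the enzyme complex that starts the glycosylphosphatidylinositol (GPI) anchor, the lipid that fixes many surface proteins to the membrane. A gene targeted in embryonic stem cells of one strain and bred onto another keeps a stretch of the first strain's chromosome around the target.

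The promoter windows of Ifnar2, Ifnar1 and Gbe1 are shown next to that of Ifit1, an antiviral gene that IFNα induces, because none of the 6 genes passed the test for a response to IFNα. Each window runs from 250 bases before to 50 bases after the gene's start, 5′ to 3′ on the gene's strand, from RefSeq on GRCm38.p6, in which 5 of the 6 genes were matched. Capitals mark matches on either strand to the core of the interferon-stimulated response element, searched as GAAA, any 2 bases and GAAA, or to the core of the gamma-activated site, searched as TTCNNNGAA. No match of one overlapped a match of the other in the windows printed. The windows are chr16:91372533-91372832 (plus strand) for Ifnar2, chr16:91484965-91485264 (plus strand) for Ifnar1, chr16:70313699-70313998 (plus strand) for Gbe1 and chr19:34640639-34640938 (plus strand) for Ifit1.
Ifnar2: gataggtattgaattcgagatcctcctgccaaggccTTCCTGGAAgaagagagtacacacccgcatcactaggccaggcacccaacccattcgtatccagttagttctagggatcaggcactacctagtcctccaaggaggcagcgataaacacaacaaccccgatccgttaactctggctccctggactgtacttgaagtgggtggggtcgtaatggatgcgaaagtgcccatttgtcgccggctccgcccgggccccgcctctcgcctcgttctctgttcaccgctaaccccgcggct
Ifnar1: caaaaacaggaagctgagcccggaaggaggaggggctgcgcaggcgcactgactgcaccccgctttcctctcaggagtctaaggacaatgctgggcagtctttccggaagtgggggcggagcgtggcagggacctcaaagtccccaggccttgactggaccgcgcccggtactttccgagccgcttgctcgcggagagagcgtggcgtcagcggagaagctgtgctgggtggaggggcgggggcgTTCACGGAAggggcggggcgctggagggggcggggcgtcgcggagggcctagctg
Gbe1: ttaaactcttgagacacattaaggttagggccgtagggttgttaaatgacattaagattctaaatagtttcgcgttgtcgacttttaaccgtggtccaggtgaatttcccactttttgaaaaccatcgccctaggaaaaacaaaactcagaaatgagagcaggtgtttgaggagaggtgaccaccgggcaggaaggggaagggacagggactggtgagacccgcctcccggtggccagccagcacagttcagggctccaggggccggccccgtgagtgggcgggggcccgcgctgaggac
Ifit1: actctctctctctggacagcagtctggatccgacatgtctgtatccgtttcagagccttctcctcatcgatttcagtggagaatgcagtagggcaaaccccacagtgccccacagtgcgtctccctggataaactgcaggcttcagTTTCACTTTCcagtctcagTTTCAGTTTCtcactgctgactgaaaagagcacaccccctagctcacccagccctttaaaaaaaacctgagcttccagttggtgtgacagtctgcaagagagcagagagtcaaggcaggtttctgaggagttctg
The Ifit1 window holds 2 matches to the interferon-stimulated response element core, TTTCACTTTC and TTTCAGTTTC, both on the reverse strand. No window of Ifnar2, Ifnar1, Ifngr2, Gbe1 or Pigp (4 windows) holds one. That core occurs in 3.44% of all 32851 promoter windows of this length. Ifnar2 and Ifnar1 each hold 1 match to the gamma-activated site core, TTCCTGGAA and TTCACGGAA, which occurs in 8.3% of all windows. The match lies at bases 37 to 45 of the Ifnar2 window and at bases 246 to 254 of the Ifnar1 window, across the start. These are matches of letters and not measured binding sites, and no match says only that these letters are absent from the window.

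The sorted cells carried the markers of their labels, but 1 marker of CD8+ T cells was also high in the T cells sorted as CD8-. All 7 macrophage markers lay above the array median on each of the 10 macrophage arrays. All 4 CD4+ T-cell markers on the array lay above it on each of the 6 T-cell arrays. Of 2 CD8+ T-cell markers, Cd8b1 also lay above it on each T-cell array (vehicle macrophages minus T cells −2.49). Cd8a lay below it there, at 6.98 to 7.22. A few arrays stood apart. Both KO arrays numbered 1 had more B-cell marker signal, with a mean log2 intensity over 4 markers of 8.02 (IFNα) and 7.83 (no IFNα), against 6.82 to 6.98 on the other macrophage arrays. The KO array numbered 1 without IFNα also had the highest mean over 5 neutrophil markers, 8.45, against 7.42 to 7.79 on the other macrophage arrays. The KO array numbered 1 at 2 h also had the lowest macrophage marker mean, 11.62, against 11.94 to 12.13 on the other macrophage arrays. The T-cell array numbered 1 at 2 h after IFNα had a macrophage marker mean of 8.09, against 7.16 to 7.42 on the other T-cell arrays. Arrays of one group correlated at 0.984 to 0.997 over all probe sets.

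Ifnar1, the targeted gene, which encodes the first chain of the type I interferon receptor, gave signal in the KO macrophages at about the B10.Q level. Its log2 intensity was 9.93 and 10.31 in KO macrophages at 2 h after IFNα and 10.26 and 10.09 in KO macrophages without IFNα. In B10.Q macrophages it was 10.26 and 10.46 with vehicle, 10.14 and 10.28 at 2 h, and 10.09 and 10.26 at 5 h. The ranges of the lines overlapped, and the lowest of all was a KO array. The KO minus B10.Q difference was −0.18 ± 0.15 without IFNα (SE, 95% interval −0.52 to 0.16) and −0.09 ± 0.15 at 2 h (−0.43 to 0.25). Where the probes lie relative to the targeted part is not given in the sources used here, so its level is no check of the KO label. The interferon response does bear on it. Of Mx1, Ifit1 and Rtp4, which IFNα induces, 3 of 3 rose in B10.Q macrophages at 2 h by 4.56 to 5.22 on the log2 scale. In KO macrophages 0 of 3 changed in limma's test, which cannot decide alone, since the untreated pair's preparation note gives the injection. Their means in KO macrophages at 2 h were 6.20, 6.12 and 6.28. B10.Q macrophages had 6.13, 6.12 and 6.73 with vehicle, and 11.35, 10.98 and 11.29 at 2 h.

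In B10.Q vehicle arrays Ifnar2, Il10rb and Gbe1 were higher in macrophages than in T cells, while the test was not passed for Ifnar1, Ifngr2 and Pigp. Ifnar2 read 12.0001 and 11.90 in vehicle macrophages, against 10.42 and 10.45 in vehicle T cells. Il10rb read 11.86 and 11.81 in vehicle macrophages, against 10.34 and 10.35 in vehicle T cells. Both receptor chains were thus well apart in the 2 cell types, and no array of one type reached the other type at any time point. The difference was 1.52 ± 0.10 for Ifnar2 (2.86-fold, limma's adjusted p = 2.44e-08) and 1.49 ± 0.15 for Il10rb (2.81-fold, limma's adjusted p = 2.20e-06). Gbe1, the branching enzyme, read 11.35 and 11.26 in vehicle macrophages, against 8.47 and 8.63 in vehicle T cells. Its difference of 2.75 ± 0.10 (6.73-fold, limma's adjusted p = 2.17e-10) was the largest of the 6 genes.

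Ifnar1 did not pass the test between the cell types. It read 10.56 and 10.54 in T cells with vehicle, 10.43 and 10.51 at 2 h and 10.55 and 10.47 at 5 h. Its vehicle arrays do not overlap, with macrophages lower at 10.26 and 10.46. Over all times the 6 macrophage arrays (10.09 to 10.46) overlap the 6 T-cell arrays (10.43 to 10.56). The macrophage minus T-cell difference in vehicle arrays was −0.19 ± 0.10 (95% interval −0.42 to 0.03, limma's adjusted p = 0.125), in the opposite direction to that of Ifnar2, and with quantile normalization it passed (−0.26, limma's adjusted p = 0.0310). Ifngr2, the signalling chain of the interferon gamma receptor, read 11.28 and 11.47 in vehicle macrophages, against 11.13 and 10.95 in vehicle T cells, a difference of 0.33 ± 0.14 (95% interval 0.02 to 0.64, limma's adjusted p = 0.0613). It passed the threshold with the replicate block (limma's adjusted p = 0.0473) and in a fit of only the groups compared (0.0186). The vehicle arrays of Ifngr2 do not overlap, but over all times the 6 macrophage arrays (10.76 to 11.47, median 11.26) overlap the 6 T-cell arrays (10.93 to 11.13, median 11.04). Of the 6 genes, 3 were called higher in macrophages and 0 lower, where 28.1% of all 11161 genes tested were called higher and 34.1% lower. All 6 B10.Q macrophage arrays lay above all 6 T-cell arrays for Ifnar2, Il10rb and Gbe1, a pattern shown by 26.9% of all genes. Against shares of this size the counts do not set the 6 genes apart.

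**Figure D1:**
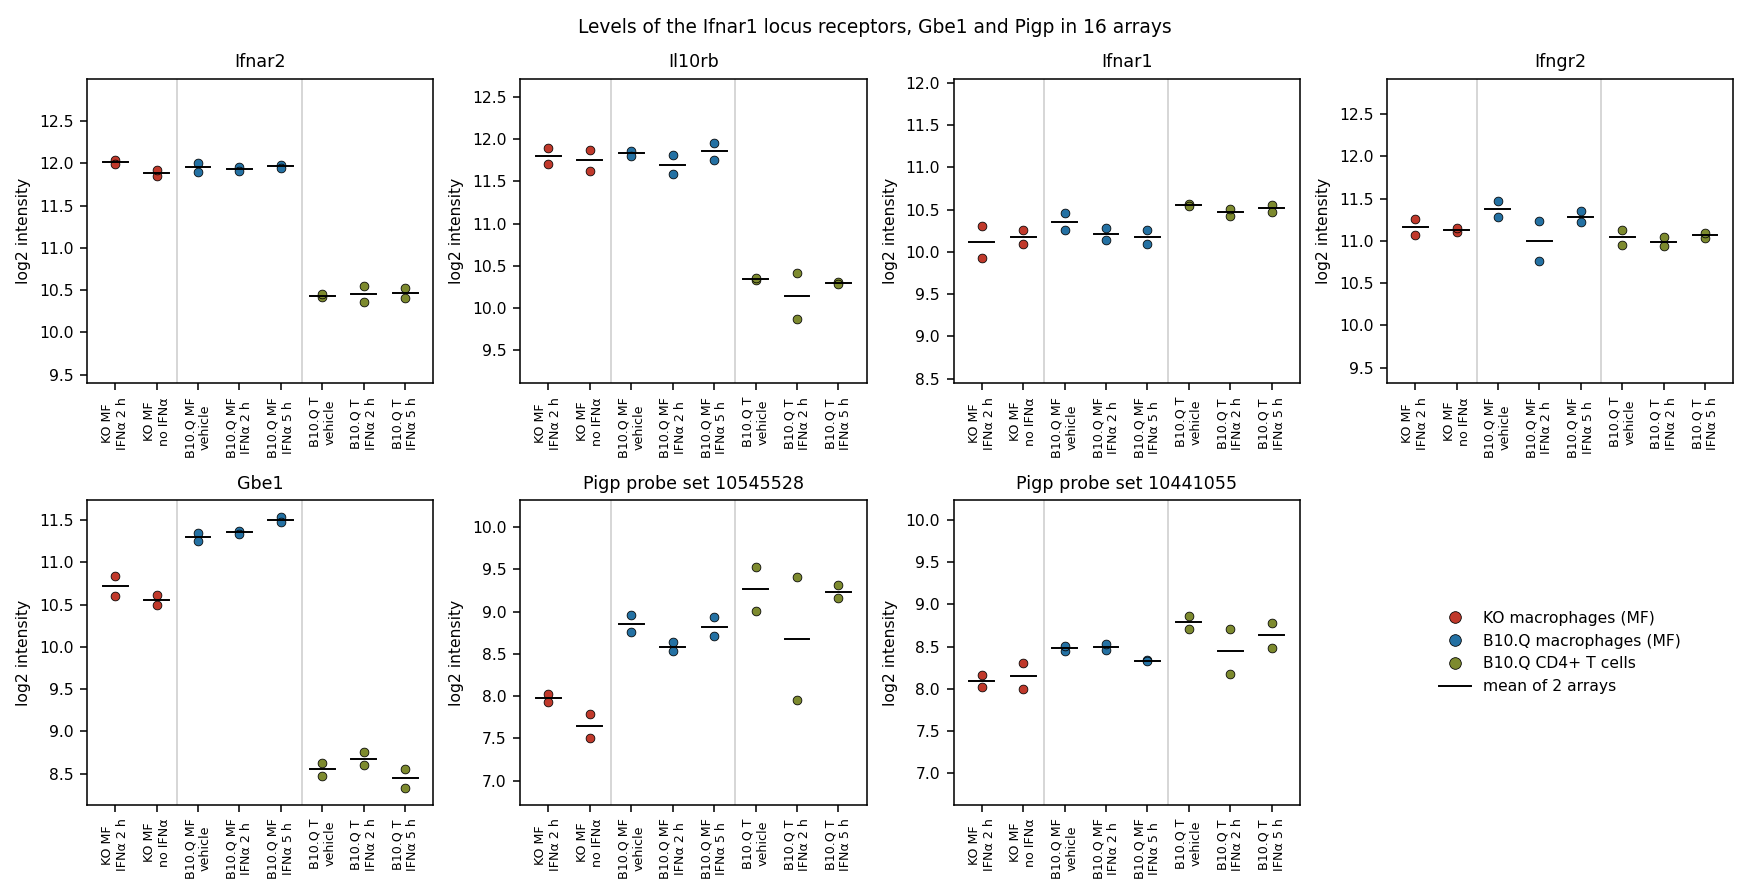
Log2 intensity of each probe set (vertical axis, every panel spanning the same number of log2 units) in each of the 16 arrays, by group along the horizontal axis, with the mean of each pair as a line. Ifnar2, Il10rb and Gbe1 lie higher in macrophages than in T cells. Ifnar1 and Ifngr2 overlap between the B10.Q cell types over all times, though not in the vehicle arrays. Gbe1 and both Pigp probe sets lie lower on all 4 KO arrays than on the 6 B10.Q macrophage arrays.

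The pathways around these genes were read from lists, and no list was tested as a set. Over all genes 28.1% were called higher in macrophages and 34.1% lower. Of the class II cytokine receptors, 7 of 12 were expressed well enough to test, and 4 were higher in macrophages and 0 lower (median difference 0.68, against −0.07 over all genes). Beside Ifnar2 and Il10rb these were Il10ra, the ligand-binding chain of the IL-10 receptor (1.92 ± 0.11), and Ifngr1, the ligand-binding chain of the interferon gamma receptor (0.68 ± 0.11). Of 13 genes of signalling close to the receptors, 1 was higher (Ptpn6, of a phosphatase) and 5 were lower. Among the lower ones was Jak1 (−1.17 ± 0.09), of the kinase shared by these receptors. Another was Irf9 (−0.97 ± 0.09), of a subunit of the interferon-activated transcription factor ISGF3. Of 8 genes of receptor turnover and feedback, 1 was higher and 4 were lower, led by Prkd2 (−3.29 ± 0.12), a kinase of the protein kinase D family, and Socs1 (−1.55 ± 0.18), an inhibitor of JAK kinases.

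Gbe1 was among 9 genes of glycogen metabolism that were higher in macrophages, and genes of the GPI pathway of Pigp were called in both directions. Where 28.1% of all genes were called higher and 34.1% lower, 9 of 17 tested glycogen genes were higher and 4 lower (median 0.31). The higher ones included Pygl, the liver form of glycogen phosphorylase (5.29 ± 0.10), Phka1, a regulatory subunit of phosphorylase kinase (2.59 ± 0.09), and Gaa, the lysosomal enzyme that breaks glycogen down (1.67 ± 0.13), and the lower ones included Pygm, the muscle phosphorylase (−0.77 ± 0.09). Of 25 genes of GPI anchor synthesis, 4 were higher and 7 lower (median 0.06), from Pigz, a mannosyltransferase (1.16 ± 0.13), to Pigo, a transferase of ethanolamine phosphate (−0.87 ± 0.11). Pigp itself, read by probe set 10545528, differed by −0.41 ± 0.33 (limma's adjusted p = 0.305). It read 8.76 and 8.95 in vehicle macrophages, against 9.01 and 9.53 in vehicle T cells. Its other probe set differed by −0.31 ± 0.15 (limma's adjusted p = 0.102, with every probe set fitted).

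**Figure D2:**
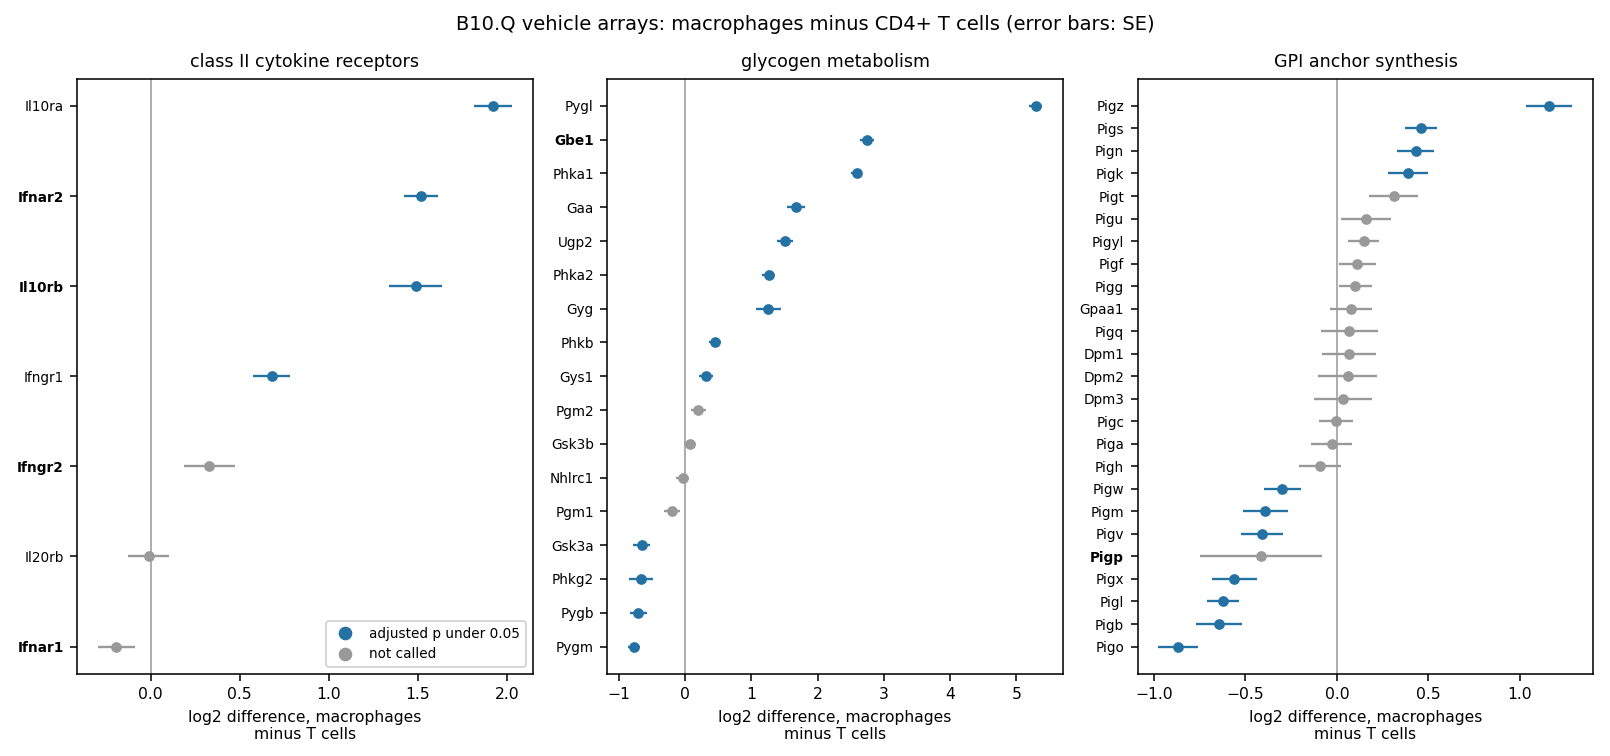
Difference in log2 intensity between B10.Q macrophages and B10.Q CD4+ T cells with vehicle (horizontal axis, macrophages minus T cells, error bars are SE) for each tested gene of 3 lists. The genes of the Ifnar1 locus, Gbe1 and Pigp (probe set 10545528) are in bold. Il10ra, Ifnar2, Il10rb and Ifngr1 lie to the right, Gbe1 is second only to Pygl in its list, and GPI anchor genes spread on both sides of 0.

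Between the mouse lines, the 4 receptor genes of the cluster overlapped in KO and B10.Q macrophages, whereas Gbe1 and Pigp were lower in KO. Gbe1 read 10.84 and 10.60 in KO macrophages at 2 h after IFNα and 10.61 and 10.50 without IFNα. In B10.Q macrophages it read 11.35 and 11.26 with vehicle, 11.38 and 11.33 at 2 h and 11.53 and 11.47 at 5 h. All 4 KO arrays thus lay below all 6 B10.Q macrophage arrays, by a gap of 0.42. The KO minus B10.Q difference was −0.75 ± 0.12 without IFNα (0.595-fold) and −0.64 ± 0.12 at 2 h (0.643-fold). Without both KO arrays numbered 1, those with B-cell marker signal, it was −0.80 and −0.76.

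Pigp had 2 probe sets that differed in how far apart the lines were. The one numbered 10545528, which represents the gene because its mean is higher, read 8.02 and 7.94 in KO macrophages at 2 h after IFNα and 7.50 and 7.78 without IFNα. In B10.Q macrophages it read 8.76 and 8.95 with vehicle, 8.54 and 8.64 at 2 h and 8.94 and 8.71 at 5 h. The KO minus B10.Q difference was −1.21 ± 0.14 without IFNα (0.432-fold) and −0.61 ± 0.14 at 2 h (0.656-fold). The gap between the lines was 0.52. The lowest value, 7.50, was on KO array 1 without IFNα, which had the B-cell marker mean of 7.83 and the neutrophil marker mean of 8.45. Without both KO arrays numbered 1 the differences were −1.07 and −0.65.

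The other Pigp probe set, numbered 10441055, read 8.16 and 8.02 in KO macrophages at 2 h after IFNα and 8.0 and 8.30 without IFNα. In B10.Q macrophages it ranged from 8.33 to 8.53 with a median of 8.46. The KO arrays again lay lower, but by a gap of only 0.03, and the differences were −0.33 ± 0.13 without IFNα and −0.41 ± 0.13 at 2 h. The annotation lists 12 transcript accessions for probe set 10545528 and 10 for probe set 10441055, of which 8 are shared. Probe set numbers on this array follow the chromosomes: for 97% of 21404 probe sets at least 10 of the 20 nearest numbers belong to genes of the same chromosome. Of the 20 nearest numbers to 10441055, 20 belong to genes of chromosome 16, but of those nearest to 10545528, 0 belong to chromosome 16 and 19 to chromosome 6. Whether probe set 10545528 reads the Pigp gene of chromosome 16 alone was not tested, and the larger Pigp difference rests on it.

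The receptors of the cluster showed no such gap. Ifnar2 read 12.03 and 11.996 in KO macrophages at 2 h and 11.85 and 11.92 without IFNα, against 11.90 to 12.0001 (median 11.95) on the 6 B10.Q macrophage arrays. Il10rb read 11.70 and 11.89 in KO macrophages at 2 h and 11.63 and 11.87 without IFNα, against 11.59 to 11.95 (median 11.81) on the B10.Q macrophage arrays. Ifngr2 read 11.07 and 11.26 in KO macrophages at 2 h and 11.11 and 11.15 without IFNα, inside its B10.Q macrophage range. Without IFNα the differences were −0.07 ± 0.10 for Ifnar2, −0.09 ± 0.14 for Il10rb and −0.24 ± 0.16 for Ifngr2, and at 2 h they were 0.09 ± 0.10, 0.10 ± 0.14 and 0.16 ± 0.16. The 95% interval of Ifngr2 without IFNα ran from −0.60 to 0.11.

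Without IFNα, 2 of the 6 genes (Gbe1 and Pigp) passed the threshold of an adjusted p under 0.05 as lower in KO, where 0.275% of all 10531 genes tested did. At 2 h, 1 of 6 (Gbe1) passed it, where 1.55% of all genes were called lower. All 4 KO arrays lay below all 6 B10.Q macrophage arrays for 2 of the 6 genes, against 6.08% of all genes. Since the genes were proposed with these differences known, nothing is read from the counts. Each of the 4 arrays of the contrast without IFNα mattered to its count. Pigp alone stayed past the threshold without either KO array or without B10.Q vehicle array 1, and neither gene did without B10.Q vehicle array 2, with Pigp at −1.11 and Gbe1 at −0.80. With Pigp read by its other probe set, only Gbe1 passed. At 2 h, 0 of 6 passed without either B10.Q array and 2 of 6 without KO array 2.

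Placed in the order of the 325 tested genes of chromosome 16, Ifnar2, Il10rb, Ifnar1 and Ifngr2 are consecutive, Gbe1 lies 32 tested genes before Ifnar1 and Pigp 22 after it. Neighbours of Ifnar1 on both sides were therefore measured between the genes that differ. Counted in bases, Gbe1 lies much farther from Ifnar1 than Pigp does. The lowest bases of the promoter windows are 70313699 for Gbe1, 91484965 for Ifnar1 and 94370281 for Pigp (1 of its 4 windows). Without IFNα, 3 of the 325 genes were called (0.923%, against 0.529% on the other chromosomes), all lower in KO. These were Gbe1, Pigp and Mirlet7c-1, a gene of the let-7c microRNA, with −1.40 ± 0.23 at 25 tested genes before Ifnar1. In the window of the 25 tested genes on either side of Ifnar1, 2 of 51 genes were called (Mirlet7c-1 and Pigp), and the median difference was −0.08, against −0.03 over all genes. With Pigp read by probe set 10441055 (limma's adjusted p = 0.362) Mirlet7c-1 was the only call in the window, and the chromosome held 2. Of the 13 consecutive runs of 25 tested genes, the run holding Gbe1 had the lowest median, −0.15 without IFNα and −0.24 at 2 h. The run holding the receptors had −0.09 and 0.09. In runs of 50 genes the run holding Gbe1 also held the receptors. Its median was −0.14 without IFNα, the lowest, but −0.05 at 2 h, where another run had −0.07. Larger shares than on chromosome 16 were called without IFNα on chromosomes 17 (11 of 545 genes, 2.02%), 13 (6 of 379, 1.58%) and 4 (7 of 647, 1.08%).

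At 2 h 2.77% of the tested genes of chromosome 16 were called, against 1.98% of all genes. The called genes were mostly ones that IFNα induces. Of 9 called genes, Rtp4, Parp14, Dtx3l, Parp9, Mx1 and Mx2, all known interferon-induced genes, were lower in KO, beside Gbe1 and the ubiquitin protease gene Usp25 (−0.79 ± 0.16), and Poglut1, an enzyme of protein O-glucosylation, was higher (0.49 ± 0.11). In the 51-gene window 0 genes were called by limma at 2 h, while 7 lower and 7 higher ones had an unadjusted p under 0.05. The counts on the chromosome moved when single arrays, or both KO arrays numbered 1, were left out, and so did the counts over all genes. Such fits leave 1 array in a group, so their counts on the chromosome are not compared here.

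**Figure D3:**
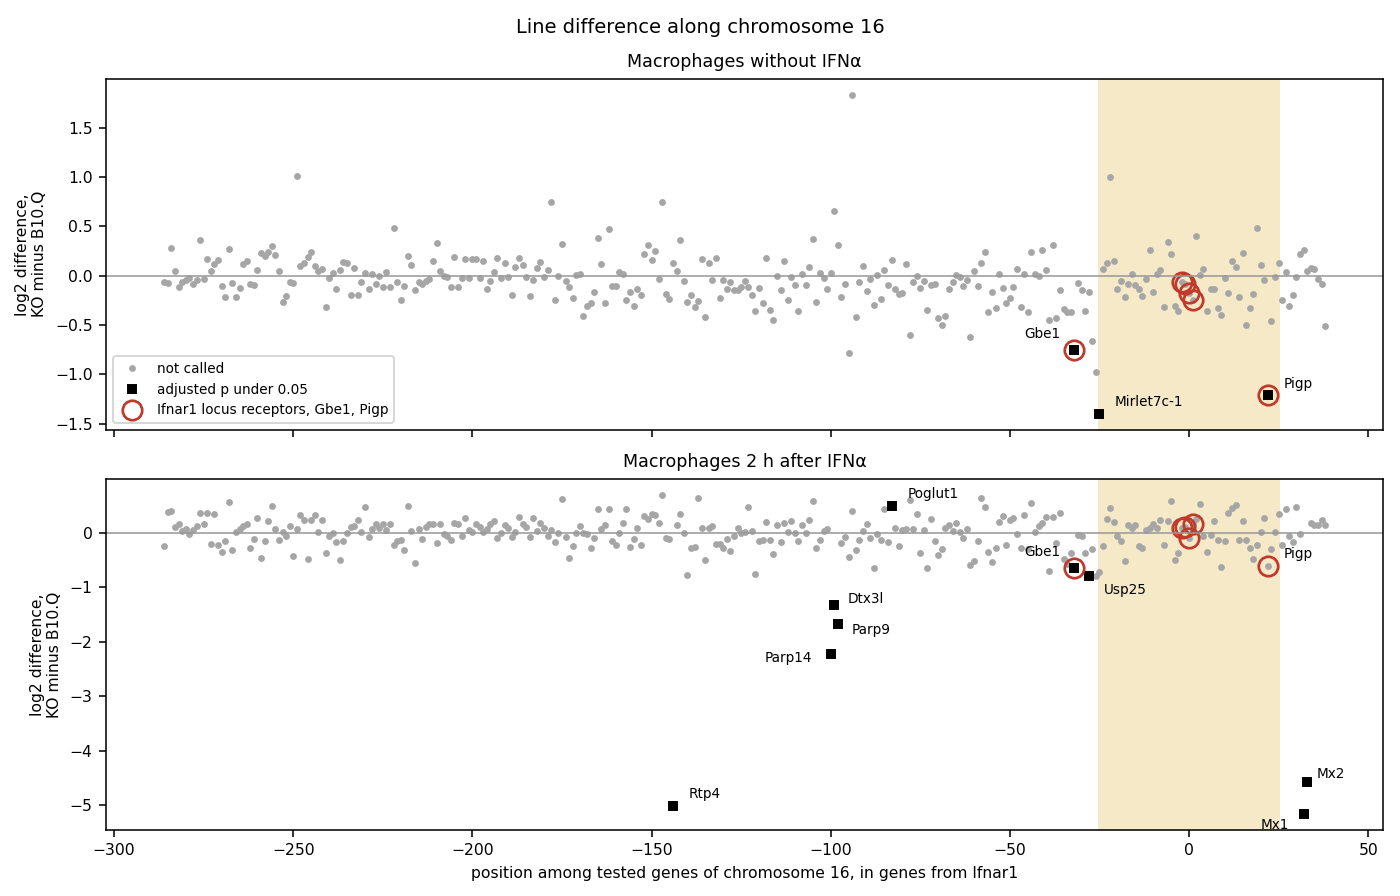
KO minus B10.Q difference in log2 intensity (vertical axis) of the 325 tested genes of chromosome 16 in their order along it, counted in genes from Ifnar1 (horizontal axis), without IFNα above and at 2 h below. Black squares passed an adjusted p under 0.05, red circles are the 4 receptor genes, Gbe1 and Pigp (probe set 10545528), and the shaded band is the window of 51 genes. The receptors lie near 0 and Gbe1 and Pigp lie below it on either side.

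IFNα did not move any of the 6 genes past the threshold in macrophages or T cells. In KO macrophages 0 of 6 were called, as were 0% of all genes, with differences from −0.06 to 0.33. In B10.Q macrophages 0 of 6 were called at 2 h (0.798% of all genes), with differences from −0.37 to 0.05, and 0 of 6 at 5 h (0.836% of all genes), with differences from −0.19 to 0.20. The comparison of 5 h with 2 h also gave 0 of 6 (0.0095% of all genes). For Ifnar1 itself the difference in B10.Q macrophages was −0.15 ± 0.15 at 2 h (95% interval −0.49 to 0.19) and −0.19 ± 0.15 at 5 h (−0.52 to 0.15), so a change as large as that of Mx1 lies far outside the intervals. At an unadjusted p under 0.05 there was 1 gene of 6 in KO macrophages (Pigp, 0.33 ± 0.14, with −0.06 ± 0.13 on its other probe set) and 1 in B10.Q macrophages at 2 h (Ifngr2, −0.37 ± 0.16, limma's adjusted p = 0.984), and none at 5 h. Ifngr2 at 2 h read 10.76 and 11.24, both below the vehicle arrays at 11.28 and 11.47, the second by little.

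In T cells 0 of 6 were called at 2 h (0.287% of all genes), at 5 h (0.0198%) or between 5 h and 2 h (0.00989%), and none had an unadjusted p under 0.05. The differences ran from −0.59 to 0.12 at 2 h and from −0.11 to 0.03 at 5 h. Pigp (probe set 10545528) read 9.01 and 9.53 with vehicle, 7.95 and 9.41 at 2 h and 9.16 and 9.31 at 5 h, so array 1 at 2 h lay far below the other 5. Il10rb showed the same array apart, with 10.34 and 10.35 with vehicle, 9.87 and 10.41 at 2 h and 10.31 and 10.29 at 5 h. The second Pigp probe set read 8.18 on that array, against 8.49 to 8.86 on the other 5. This is the T-cell array with the macrophage marker mean of 8.09, and what part that has in the low values was not tested. When only that array stood for 2 h, Pigp (−1.31) and Il10rb (−0.47) passed limma's threshold against vehicle, the lone array being assumed to vary like the other groups, and without it neither did, at 0.14 and 0.07.

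**Figure D4:**
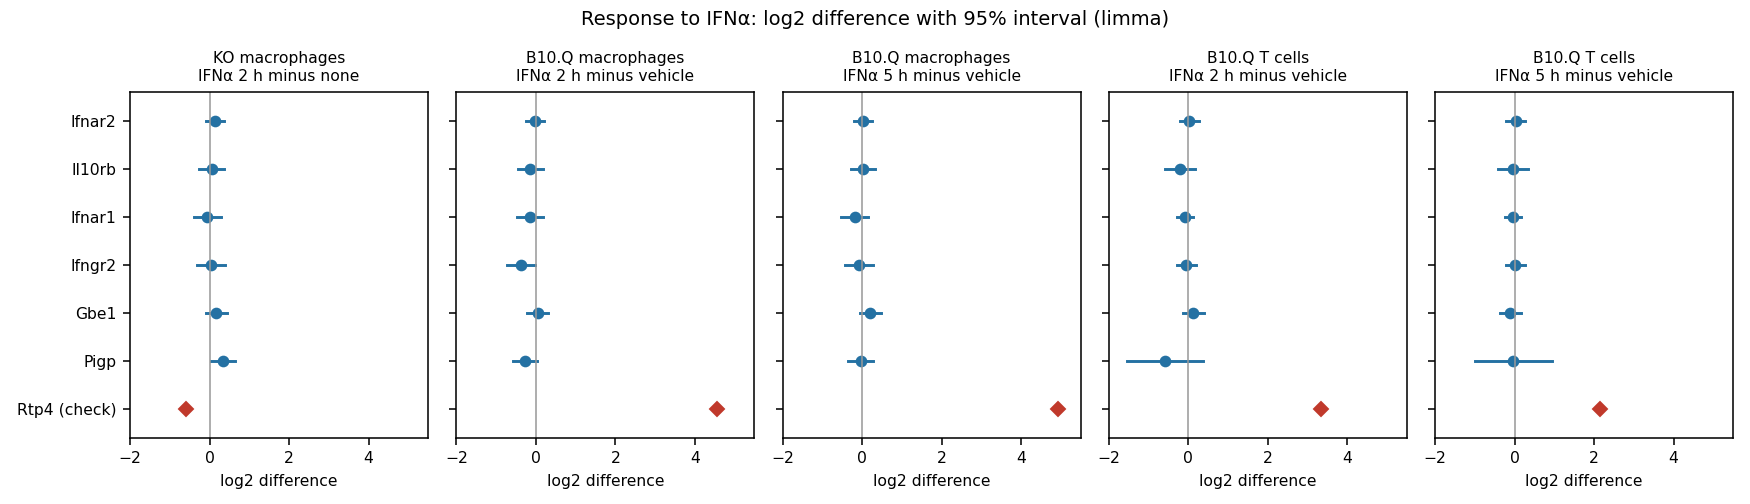
Difference in log2 intensity after IFNα (horizontal axis, IFNα minus its control, points with 95% intervals from limma) for the 6 genes in each cell type and time. Red diamonds show Rtp4, an induced gene, for scale. The 6 genes lie near 0 in every panel, with a wide interval for Pigp (probe set 10545528) in T cells. Rtp4 lies at 2.14 to 4.93 in the B10.Q panels.

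No test of a difference in response between lines or cell types was passed by any of the 6 genes. The difference of 2 h responses between KO and B10.Q macrophages was called for 0 of 6 (0.408% of all genes). That of Pigp was 0.60 ± 0.20 (unadjusted p = 0.0117 and adjusted p = 0.529, both from limma), with −0.08 ± 0.18 on its other probe set, and the other 5 lay between 0.09 and 0.41. The difference of responses between macrophages and T cells was called for 0 of 6 at 2 h (0.0269% of all genes) and at 5 h (0.251%), with none at an unadjusted p under 0.05. Of the class II cytokine receptors 0 of 7 were called at either time in either cell type, which at shares of 0.798% of all genes in B10.Q macrophages and 0.287% in T cells at 2 h does not set them apart. In B10.Q macrophages at 2 h Stat2 (2.07 ± 0.26) and Irf9 (1.62 ± 0.20), subunits of ISGF3, were called. They were the only calls among 13 genes of signalling close to the receptors. Among 7 genes of turnover and feedback the call was Usp18 (4.34 ± 0.42), a protease that binds IFNAR2 and dampens its signal. In T cells at 2 h the called genes of these lists were Irf9 (1.198 ± 0.09) and Usp18 (3.43 ± 0.27). Of the genes of GPI anchor synthesis and glycogen metabolism, 0 of 25 and 0 of 16 were called after IFNα in B10.Q macrophages at 2 h or 5 h.

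Likeness of pattern was measured as Pearson's r over the 10 macrophage arrays against 10530 other genes. Some of these arrays share a line or a treatment. The genes most like Gbe1 were Ncoa7, Car12 and Tdo2, each at 0.98. Those most like Pigp, read by probe set 10545528, were Cyld (0.97), Sugp1 (0.96) and Fibp (0.96). None of these lies on chromosome 16, which holds only 325 of the 10531 genes tested, so nothing is read from that. Within the 6 B10.Q arrays r with Gbe1 was 0.56 for Ncoa7, 0.72 for Car12 and 0.98 for Tdo2, and within the 4 KO arrays it was 0.99, 0.92 and 0.996. With Pigp it was 0.83 for Cyld, 0.86 for Sugp1 and 0.53 for Fibp within B10.Q, and 0.82, 0.76 and 0.69 within KO. Gbe1 and Pigp were at 0.93 over the 10 arrays, at 0.06 within the 6 B10.Q arrays and at 0.50 within the 4 KO arrays. These values hold for Pigp probe set 10545528. Its r with the other Pigp probe set was 0.81 over the 10 arrays, −0.22 within B10.Q and 0.30 within KO.

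For the receptors the most similar genes were others. Ifnar1 was most like Galnt4, Nipa1 and Usp22 (0.95, 0.95 and 0.94), and Ifngr2 most like Dcaf15, Lyl1 and Nrf1 (0.97, 0.96 and 0.95). Ifnar2 was most like Ing2 (0.92), and Il10rb most like Bmp1 (0.93). Among the neighbouring receptors r over the 10 arrays ranged from −0.50 between Ifnar1 and Ifnar2, through 0.13 between Ifnar1 and Il10rb, to 0.61 between Ifnar1 and Ifngr2 and 0.62 between Il10rb and Ifngr2. Ifnar2 varied least, by 0.18 from its lowest to its highest macrophage array. This range was 0.36 for Il10rb, 0.53 for Ifnar1, 0.70 for Ifngr2 and 1.03 for Gbe1. For Pigp it was 1.45 on probe set 10545528 and 0.53 on the other probe set. In the order of group means, neighbouring groups overlapped for Ifnar1 throughout. For Ifnar2 the 5 macrophage groups lay above the 3 T-cell groups, and the only other neighbours without overlap were KO macrophages at 2 h and B10.Q macrophages at 5 h. For Gbe1 the order ran from B10.Q macrophages at 5 h, apart from those at 2 h and with vehicle, to both KO groups and then the T cells, and each of these 3 steps was free of overlap.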

How the data were processed

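Total RNA of sorted cells was amplified with the Ambion WT Expression Kit and hybridised to the arrays, per the labels. The values deposited by the authors are one linear intensity for each probe set, summarised with RMA in Affymetrix Power Tools per the submitters' processing notes, which give no version. Whether the 16 arrays were normalised together, and the genome build, are not given in the sources used here. Values were used as log2 of the deposited intensity with no further scaling. Precision is limited by how many arrays there are. Of 24922 probe sets, 21425 carried 1 gene symbol, 1399 several and 2098 none. A gene with several probe sets was represented by the one with the highest mean over 16 arrays. Order along chromosomes came from RefSeq on GRCm38.p6.

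Genes entered a test if, on 2 or more of its arrays, they exceeded that array's median. The lmFit and eBayes functions of limma 3.58.1 (R 4.3.3) were run over 10 macrophage arrays, 6 T-cell arrays or the 12 B10.Q arrays, for 13 contrasts. P-values are two-sided, adjusted by Benjamini-Hochberg over all genes tested, and a call is an adjusted p under 0.05. Errors are SE of the log2 difference, with 2 arrays a group, and intervals are 95%. The procedure was tested on simulated data. Named genes were the 6 genes, the 3 genes most alike in macrophages, up to 4 called genes with the largest change per list, chromosome 16 genes by position, up to 10 called ones without IFNα, and Mx1, Ifit1 and Rtp4. The 9 genes called at 2 h were named after their values were seen. The 6 genes and the lists were chosen with earlier results of these data known.

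The replicate numbers of the titles were checked as pairs. Same-numbered deviations correlated at −0.29 between the KO groups, at −0.05 to 0.14 among B10.Q macrophage groups at −0.08 to 0.14 among T-cell groups, and between the cell types at 0.16 with vehicle, 0.17 at 2 h and −0.14 at 5 h. They are not all above 0.1, so the fits carry no block. Alternatives were 2 other filters, a robust variance with a trend, every probe set, quantile normalization, centring each array on its median, the replicate block, other sets of arrays and leaving out each array. Further ones were chosen after seeing the data: both KO arrays numbered 1 left out, the KO numbers crossed, and Pigp by its other probe set.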

Additional observations from a re-analysis of the deposited data

How the results depend on the processing

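The 3 genes higher in macrophages (Ifnar2, Il10rb and Gbe1) stayed past the threshold in every alternative run, with 3 or 4 genes called. The fourth was Ifngr2 with the replicate block (adjusted p = 0.0473 in limma) and in a fit of only the groups compared (0.0186), or Ifnar1 with quantile normalization (−0.26, 0.0310). The IFNα contrasts stayed at 0 of 6 in every alternative except when T-cell array 2 at 2 h was left out, so that leaving out single arrays gave 0 to 2 genes for T cells at 2 h and for 5 h against 2 h, and 0 to 1 for the 2 h responses of macrophages minus T cells, in which Pigp differed by 1.04. Of 63 uncalled values outside the line differences, 34 changed sign in some alternative.

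The line differences were the least settled. Without IFNα the count of 2 became 1 with quantile normalization, 1 with all 16 arrays in one fit, 1 with Pigp by its other probe set, and 0 to 1 with single arrays left out. At 2 h the count of 1 became 0 with quantile normalization, 0 with only the groups compared, 2 with both KO arrays numbered 1 left out, and 0 to 2 with single arrays left out. Gbe1 kept its direction throughout, from −0.80 to −0.69 without IFNα and from −0.76 to −0.52 at 2 h. Over all genes, without IFNα, 57 calls became 638 without both KO arrays numbered 1, and 21 to 33 with single arrays left out, and at 2 h 209 calls became 79 to 408, or 76 to 2901 with single arrays left out. In T cells at 2 h, 29 calls became 2 to 50, or 0 to 1817, and in KO macrophages 0 became 0 to 32, or up to 1191. In B10.Q macrophages 84 calls at 2 h became 75 to 123, or 36 to 123, and 88 at 5 h became 75 to 203, or 29 to 38. The cause of these changes was not tested. With the replicate block 2 of 6 were called without IFNα and 1 of 6 at 2 h, with 59 and 196 of all genes, and no count changed by more than 1.5 times. Crossing the KO numbers gave 77 and 287 of all genes.

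The receptors and Gbe1 lay above the array median on every array. Gbe1 in T cells lay nearest to it among these, at 8.33 to 8.75. Pigp (probe set 10545528) read 7.50 on a KO array, under that array's median of 7.55. Background signal was not measured here, so whether it limits these values was not tested.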
